A study of Mus musculus with 4 samples.

Results

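Orphan and adhesion G protein-coupled receptors and the RGS proteins (regulators of G protein signalling) were described in lineage-negative bone marrow, the cells left after magnetic depletion of mature blood lineages. The members were all genes whose symbol begins with Gpr and a digit, with Adgr, or with Rgs and a digit, except Adgrl4. A probe with a single symbol was found for 79 of them, and 31 were kept because their brightest probe lay in the upper 50% of all probes, ranked by the mean of log2 signal. The 31 comprised 20 of 48 Gpr genes, 3 of 14 Adgr genes and 8 of 17 Rgs genes, out of 8445 kept genes in all. The Mtg16-null mice lacked Mtg16 (gene symbol Cbfa2t3), an ETO family corepressor of transcription, and came from a generation 4 backcross into C57BL/6. The wild-type mice were C57BL/6. All mice were females of 8 to 12 weeks, with no treatment named in the labels, and each RNA was pooled from the marrow of 4 mice. Each genotype had 2 arrays, numbered by array lot, so that lots 1 and 2 each held both genotypes. Nothing in the labels tells if arrays of 1 genotype came from separate pools; p-values then measure only how far these 4 samples spread, possibly for technical reasons. The number of arrays limits the precision.

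Receptors of this superfamily cross the membrane several times and, once bound by a ligand, make a heterotrimeric G protein exchange GDP for GTP. RGS proteins speed the hydrolysis of that GTP and so shorten the signal. Orphan receptors had no known ligand when they were named, although several have one now, and adhesion receptors carry a long extracellular part that is cut from the membrane part during maturation. In blood cells these proteins tune migration, retention in marrow and responses to lipids, protons and chemokines.

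Cbfa2t3 itself had 95520 and 118572 signal units in null arrays 1 and 2, against 80854 and 100256 in wild-type arrays 1 and 2, and so was not lower where the label says null. Whether its probe lies inside the deletion is not given in the sources used here, so every direction below rests on the labels. Probes for 6 Y-linked genes, which female mice lack, read between 94.5 and 498 units and serve as a guide to signal without a transcript. The 498 units are the Sry reading of wild-type array 1, and no other Y-linked gene read above 362 units. Of the 31 kept members, 23 were above 498 units on every array. The 8 others were within the Y-linked range on at least 1 array (Gpr84, Gpr153, Gpr6, Gpr50, Gpr3, Gpr132, Gpr63 and Rgs3). Of these, Gpr153, Gpr63 and Rgs3 were above 362 units on every array. Kit, the stem cell factor receptor gene of progenitors, read 34022 and 41866 units in the null arrays against 39213 and 47408 units in the wild-type arrays. The 10 stem and multipotent cell genes with a probe included Kit. They summed to 138512 to 139556 units in null and 106109 to 106735 units in wild type. Of the 9 kept, 5 lay above in null without overlap (Cd34, Slamf1, Hoxb4, Flt3 and Meis1) and 1 below (Msi2). Over all kept genes, 22.6% lay above in null without overlap and 23.1% below. Cd3e, which defines T cells, stayed between 120 and 325 units on all 4 arrays. Cd3g read 522.5 and 601 units in the null arrays and 739 and 489 units in the wild-type arrays. Cd3d read 649 and 200 units in the null arrays and 181 and 825 units in the wild-type arrays.

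Promoter sequences are shown for 2 receptor genes with higher signal in the null arrays in both lots, Adgrg3 and Gpr65, and for 1 with lower signal, Gpr146. They come from RefSeq (build GRCm38.p6) and run from 250 bases before to 50 bases after the gene's start, 5′ to 3′ on the gene's strand. The Adgrg3 window is chr8:95017442-95017741 and the Gpr65 window chr12:98268385-98268684, both on the plus strand. That of Gpr146 is the most upstream of its 3 entries, chr5:139377447-139377746, plus strand. Capitals mark matches on either strand to 5 motifs: the E-box forms CAGCTG and CAGATG, which E proteins bind, AGATAA for GATA factors, TGTGGT for RUNX factors and GAGGAA for ETS factors.
Adgrg3: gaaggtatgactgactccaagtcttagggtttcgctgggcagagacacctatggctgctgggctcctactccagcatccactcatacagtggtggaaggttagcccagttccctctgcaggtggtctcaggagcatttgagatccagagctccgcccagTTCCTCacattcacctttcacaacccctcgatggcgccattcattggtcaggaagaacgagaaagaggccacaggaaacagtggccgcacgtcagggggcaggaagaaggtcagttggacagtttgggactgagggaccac
Gpr65: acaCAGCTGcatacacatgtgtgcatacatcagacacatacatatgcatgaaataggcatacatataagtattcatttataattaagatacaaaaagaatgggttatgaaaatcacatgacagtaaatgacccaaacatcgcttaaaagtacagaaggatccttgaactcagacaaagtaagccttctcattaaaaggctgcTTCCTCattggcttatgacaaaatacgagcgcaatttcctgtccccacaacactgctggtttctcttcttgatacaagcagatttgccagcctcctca
Gpr146: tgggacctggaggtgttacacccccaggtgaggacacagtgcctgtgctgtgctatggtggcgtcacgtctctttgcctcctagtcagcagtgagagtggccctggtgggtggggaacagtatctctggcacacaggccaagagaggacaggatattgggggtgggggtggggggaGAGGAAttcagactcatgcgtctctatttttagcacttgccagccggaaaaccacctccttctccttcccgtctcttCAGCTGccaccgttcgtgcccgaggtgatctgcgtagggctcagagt
None of the capitals of different motifs overlap. Adgrg3 holds 1 ETS match, read as TTCCTC on the strand shown, at bases 160 to 165. Gpr65 holds a CAGCTG at bases 4 to 9 and an ETS match at bases 203 to 208, and Gpr146 an ETS match at bases 177 to 182 and a CAGCTG at bases 254 to 259. Over 32544 promoter windows of this length, CAGCTG was present in 16.4%, CAGATG in 17.1%, AGATAA in 11.2%, TGTGGT in 16.7% and GAGGAA in 28.1%. Among the 39 windows of the 24 kept members with an entry, the same motifs were present in 23.1%, 7.69%, 2.56%, 12.8% and 30.8%. These matches describe letters only.

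Adhesion receptors were few among the kept genes, and Adgrg3 stood out among them by its difference between genotypes. Adgrg3 (also called Gpr97), an adhesion receptor known from granulocytes, had 107012 and 98646 units in null arrays 1 and 2, against 48495 and 49501 units in wild-type arrays 1 and 2. Both null arrays were high and the genotypes did not overlap. The log2 difference, null minus wild type, was 1.07 (SE 0.17, 2.10-fold), with 1.14 in lot 1 and 0.99 in lot 2, and limma gave an unadjusted p of 0.00298 and an adjusted p of 0.104. A dimmer probe for the same gene read 57761 and 49275 units in the null arrays against 28642 and 26079 units in the wild-type arrays, a log2 difference of 0.96. In bulk RNA, more cells that express a gene and more transcript per cell cannot be told apart, here or for any gene below.

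Adgrg1 (Gpr56), an adhesion receptor of stem cells and natural killer cells, read 109160 and 149510 units in the null arrays, against 77517 and 114700 units in the wild-type arrays. Its difference of 0.44 (SE 0.30, limma adjusted p = 0.580) had the same sign in both lots, but the genotypes overlapped, since lot 2 was the higher lot in each. Leaving out wild-type array 1 gave 0.16 and leaving out null array 2 gave 0.21, and without the other arrays, null 1 and wild-type 2, it was 0.67 and 0.72. Adgre5 (CD97), a leukocyte receptor that binds CD55, had 6575 and 7641 units in the null arrays and 8231 and 7166 units in the wild-type arrays, a log2 difference of -0.12 with opposite signs in the 2 lots. Adgrg1 and Adgrg3 are neighbours with no coding gene between them in the RefSeq order. Adgre5, Adgrg1 and Adgrg3 lie on chromosome 8, as does Cbfa2t3, with 390, 260 and 259 coding genes in between. The extent of donor-strain sequence on that chromosome in the null mice was not tested.

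**Figure D1:**
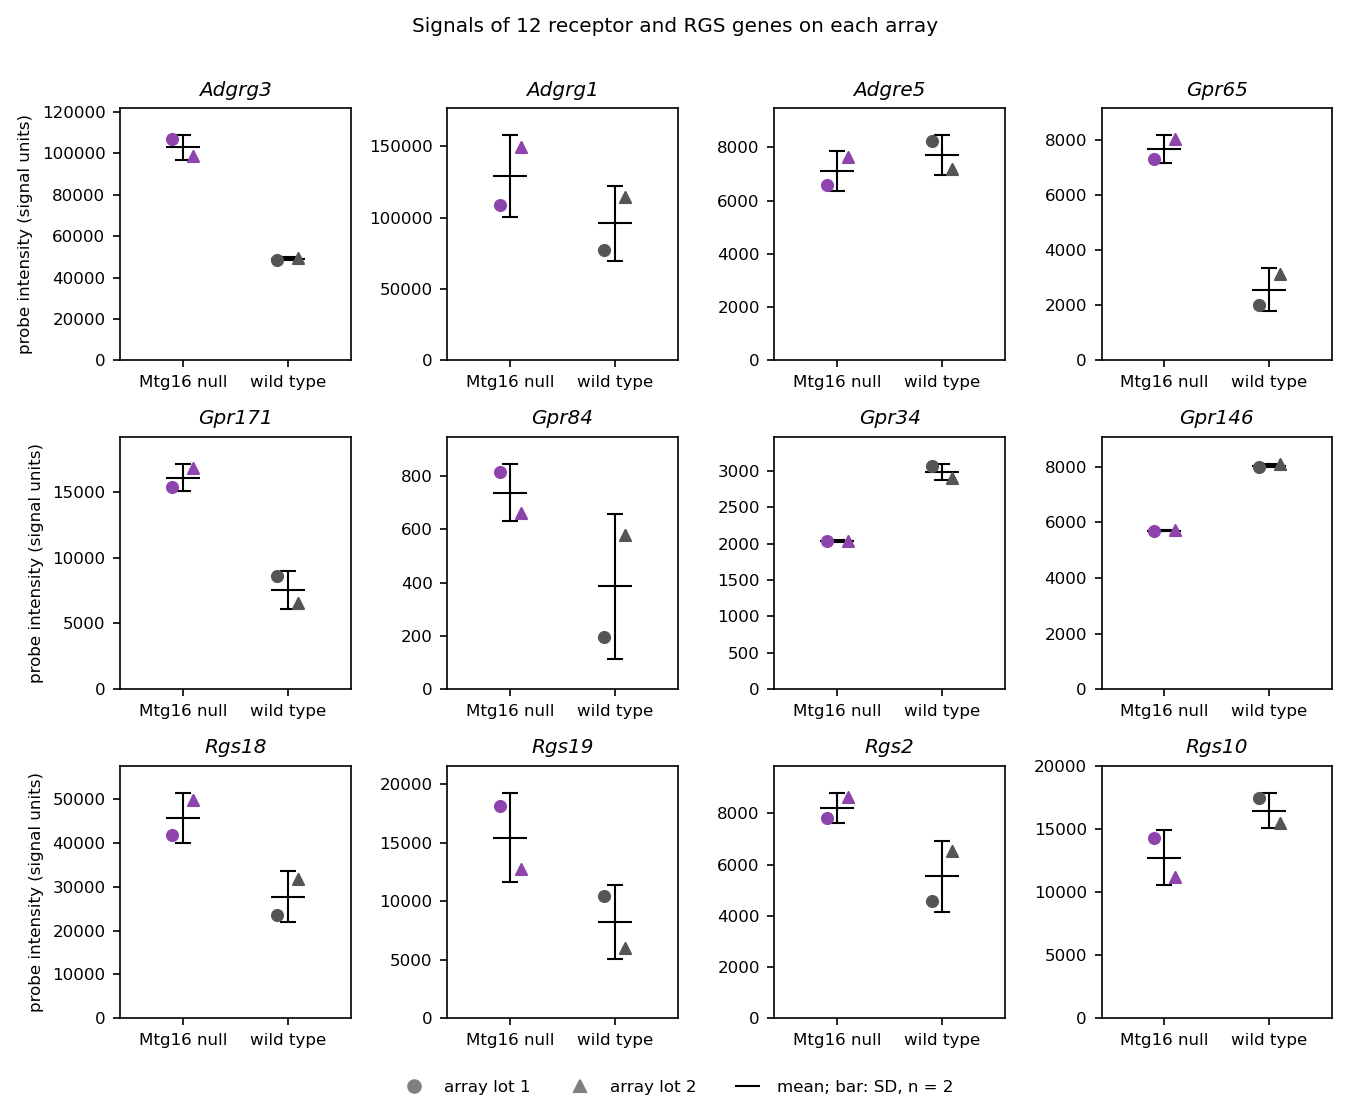
Probe intensity in signal units (linear axes from 0) of 12 genes in Mtg16-null and wild-type marrow, with circles for array lot 1, triangles for lot 2, a horizontal line for the mean and bars for the SD (n = 2). Adgrg3, Gpr65 and Gpr171 lie higher on both null arrays than on either wild-type array, and Gpr34, Gpr146 and Rgs10 lie lower; Adgrg1 and Adgre5 overlap.

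Among the receptors named Gpr, a proton sensor and a lymphocyte receptor were higher in the null arrays. Gpr65 (TDAG8), which senses extracellular protons and is found on lymphoid and myeloid cells, had 7326 and 8043 units in null arrays 1 and 2, against 2018 and 3140 units in wild-type arrays 1 and 2. The null arrays averaged 7684 ± 507 units and the wild-type arrays 2579 ± 793 units (SD, n = 2 each), 3.05-fold higher in null. This log2 difference of 1.61 (SE 0.28, 95% interval 0.84 to 2.38, limma unadjusted p = 0.00422, adjusted p = 0.113) was the one member difference of at least 2-fold in both lots, with 1.86 and 1.36. Over all kept genes, 3.26% met that mark upward and 2.19% downward, where 0 members did.

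Gpr171, a receptor of lymphocytes whose peptide ligand BigLEN is known from mouse brain, read 15333 and 16807 units in the null arrays, against 8579 and 6522 units in the wild-type arrays. Its log2 difference was 1.10 (SE 0.22, limma unadjusted p = 0.00690, adjusted p = 0.130), with 0.84 in lot 1 and 1.37 in lot 2 and no overlap between the genotypes. Gpr84, a receptor for medium-chain fatty acids on inflammatory myeloid cells, had 813 and 661 units in the null arrays and 194 and 577 units in the wild-type arrays. The genotypes did not overlap, but the size came from lot 1, where the log2 difference was 2.07 against 0.20 in lot 2. Without wild-type array 1 it was 0.35, and the null signals themselves were not far above the Y-linked range (log2 difference over 4 arrays 1.13, SE 0.58, limma adjusted p = 0.454).

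Gpr183 (EBI2), an oxysterol receptor that positions B cells, had 3319 and 3632 units in the null arrays, against 3206 and 2779 units in the wild-type arrays. The log2 difference of 0.22 (SE 0.19, limma adjusted p = 0.671) came with genotypes that did not overlap by a small margin. Gpr18, a receptor of lymphoid tissue and the direct neighbour of Gpr183 on chromosome 14, had 1942 and 1810 units in the null arrays and 2174 and 1457 units in the wild-type arrays, a log2 difference of 0.08 with opposite signs in the lots.

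Lower signals in the null arrays were read for Gpr34 and Gpr146. Gpr34, a receptor for lysophosphatidylserine on microglia and mast cells, had 2031 and 2041 units in null arrays 1 and 2, against 3060 and 2904 units in wild-type arrays 1 and 2. The arrays of a genotype lay close together, and the log2 difference was -0.55 (SE 0.17, 95% interval -1.01 to -0.09, limma unadjusted p = 0.0288, adjusted p = 0.248). Gpr146, a receptor that raises plasma cholesterol through the liver in mice, had 5681 and 5720 units in the null arrays, against 8000 and 8075 units in the wild-type arrays. Gpr146 and the array values of Gpr63, Gpr108 and Rgs17 were picked for description after their values were seen. For Gpr146 the log2 difference was -0.50 (SE 0.16, limma unadjusted p = 0.0382, adjusted p = 0.275), with -0.49 in lot 1 and -0.50 in lot 2. Gpr63, a receptor described mainly in brain, had 488 and 369 units in the null arrays and 558 and 974 units in the wild-type arrays. The log2 difference was -0.80 (SE 0.35, limma adjusted p = 0.391), and wild-type array 2 set its size: lot 1 gave -0.19, lot 2 gave -1.40, and leaving that array out gave -0.39.

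With Gpr18, 13 kept Gpr genes overlapped between genotypes, with log2 differences from -0.38 for Gpr132 to 0.31 for Gpr119 and SEs up to 1.25. Gpr132, a receptor of lymphocytes and macrophages linked to lysophospholipids, had 1253 and 133 units in the null arrays and 873 and 324 units in the wild-type arrays. It was therefore higher in null in lot 1 and lower in null in lot 2. Gpr119, a lipid receptor of gut and pancreatic islets, likewise changed sign between lots, with 1.03 and -0.42. Members with the narrowest differences were proteins of inner membranes. Gpr108, a Golgi protein, had 11081 and 12417 units in the null arrays and 10846 and 12719 units in the wild-type arrays, a log2 difference of -0.002 (95% interval -0.53 to 0.53). Gpr137, Gpr137b and Gpr137c, a family of lysosomal membrane proteins, had log2 differences of 0.002, -0.03 and -0.02. For Gpr137 this was the mean of 0.31 in lot 1 and -0.30 in lot 2. Gpr137b (-0.11 and 0.04) and Gpr137c (0.05 and -0.09) also changed sign between lots. The log2 difference was -0.22 for Gpr19, 0.09 for Gpr153, 0.08 for Gpr180, -0.30 for Gpr3, 0.04 for Gpr6 and -0.19 for Gpr50. Gpr3 and Gpr6 encode receptors that raise cyclic AMP without an added ligand, and Gpr50 a receptor related to those for melatonin.

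Of the 17 Rgs genes with a probe, 8 were kept and 9 lay below the filter. The 9 include Rgs9bp, whose symbol fits the rule though it names a binding protein of RGS9. Of the 8 kept, 6 had both null arrays above both wild-type arrays (Rgs19, Rgs1, Rgs18, Rgs2, Rgs3 and Rgs14), against 22.6% of all kept genes, and 1 had both below (Rgs10), against 23.1%. With limma 0 of the 8 passed at an adjusted p under 0.05, and 1 (Rgs18) had an unadjusted p under 0.05. With the array lot as a block, the unadjusted limma p was 0.00938 for Rgs19, 0.0125 for Rgs18, 0.0192 for Rgs3 and 0.0387 for Rgs2. It was not under 0.05 for any other kept Rgs gene. Over all kept genes the block raised the count at that threshold from 1392 to 2054. After adjustment 0 of the 8 passed with the block (smallest 0.121, for Rgs19). The median log2 difference of the 8 was 0.58, against -0.02 over all 8445 kept genes. No test of the list was made. Among the 9 below the filter 0 had both null arrays above and 3 had both below. The shares among all 5395 genes below the filter were 17.4% and 16.1%. All 9 read at or under 498 units on every array, so their differences are not resolved from background.

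Rgs18, an RGS protein of megakaryocytes and platelets, had 41762 and 49800 units in null arrays 1 and 2, against 23588 and 31819 units in wild-type arrays 1 and 2. The log2 difference was 0.74 (SE 0.24, 95% interval 0.08 to 1.39, limma unadjusted p = 0.0362, adjusted p = 0.269), with 0.82 in lot 1 and 0.65 in lot 2. Rgs19 (GAIP), which acts on Gi proteins, had 18151 and 12743 units in the null arrays, against 10464 and 5985 units in the wild-type arrays. Its difference of 0.94 (SE 0.37, limma adjusted p = 0.341) was 1.09 in lot 2 and 0.79 in lot 1, and in each genotype lot 1 read higher. Leaving out wild-type array 2 gave 0.54, and leaving out wild-type array 1 gave 1.35. Rgs2, which prefers Gq proteins, read 7811 and 8634 units in the null arrays, against 4567 and 6511 units in the wild-type arrays (log2 difference 0.59, SE 0.25, limma adjusted p = 0.366, and 0.34 for the difference without wild-type array 1).

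Rgs1, which damps chemokine receptor signals in lymphocytes, had 2402 and 2746 units in the null arrays, against 1084 and 2073 units in the wild-type arrays. The log2 difference was 0.78 (SE 0.37, limma adjusted p = 0.422). The 2 lots differed in size for Rgs1, with 1.15 in lot 1 and 0.41 in lot 2, and the difference was 0.31 without wild-type array 1 (leaving out wild-type array 2 instead gave 1.24). Rgs1, Rgs2 and Rgs18 lie in a cluster on chromosome 1, with 1 coding gene between Rgs2 and Rgs1 and 1 between Rgs1 and Rgs18. The fourth measured gene of that cluster, Rgs13, was below the filter, with 141 and 147 units in the null arrays and 207 and 201 units in the wild-type arrays, all within the Y-linked range.

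Rgs3, a GTPase activator of Gi and Gq proteins, had 662 and 966 units in the null arrays, against 441 and 661 units in the wild-type arrays. The log2 difference was 0.57 (SE 0.32, limma adjusted p = 0.496), and lot 2 was the higher lot in both genotypes. Without wild-type array 1 or null array 2 the difference was 0.28 or 0.30, and without null array 1 or wild-type array 2 it was 0.84 or 0.86. A dimmer kept probe of Rgs3 gave 569 and 437 units in the null arrays and 492 and 406 units in the wild-type arrays, a log2 difference of 0.16 with overlap, so the 2 probes disagree in size. Rgs14, which also carries a motif that binds inactive Gi subunits, had 2018 and 2079 units in the null arrays, against 1759 and 1772 units in the wild-type arrays (log2 difference 0.21, SE 0.17, limma adjusted p = 0.629). Rgs10, a small RGS protein of myeloid cells, was the only kept Rgs gene with both null arrays below both wild-type arrays. It had 14261 and 11156 units in the null arrays against 17451 and 15459 units in the wild-type arrays (log2 difference -0.38, SE 0.21, limma adjusted p = 0.495). Rgs17 had 5241 and 670 units in the null arrays and 4673 and 1332 units in the wild-type arrays, a log2 difference of -0.41 (SE 1.22) that was far smaller than its lot difference.

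**Figure D2:**
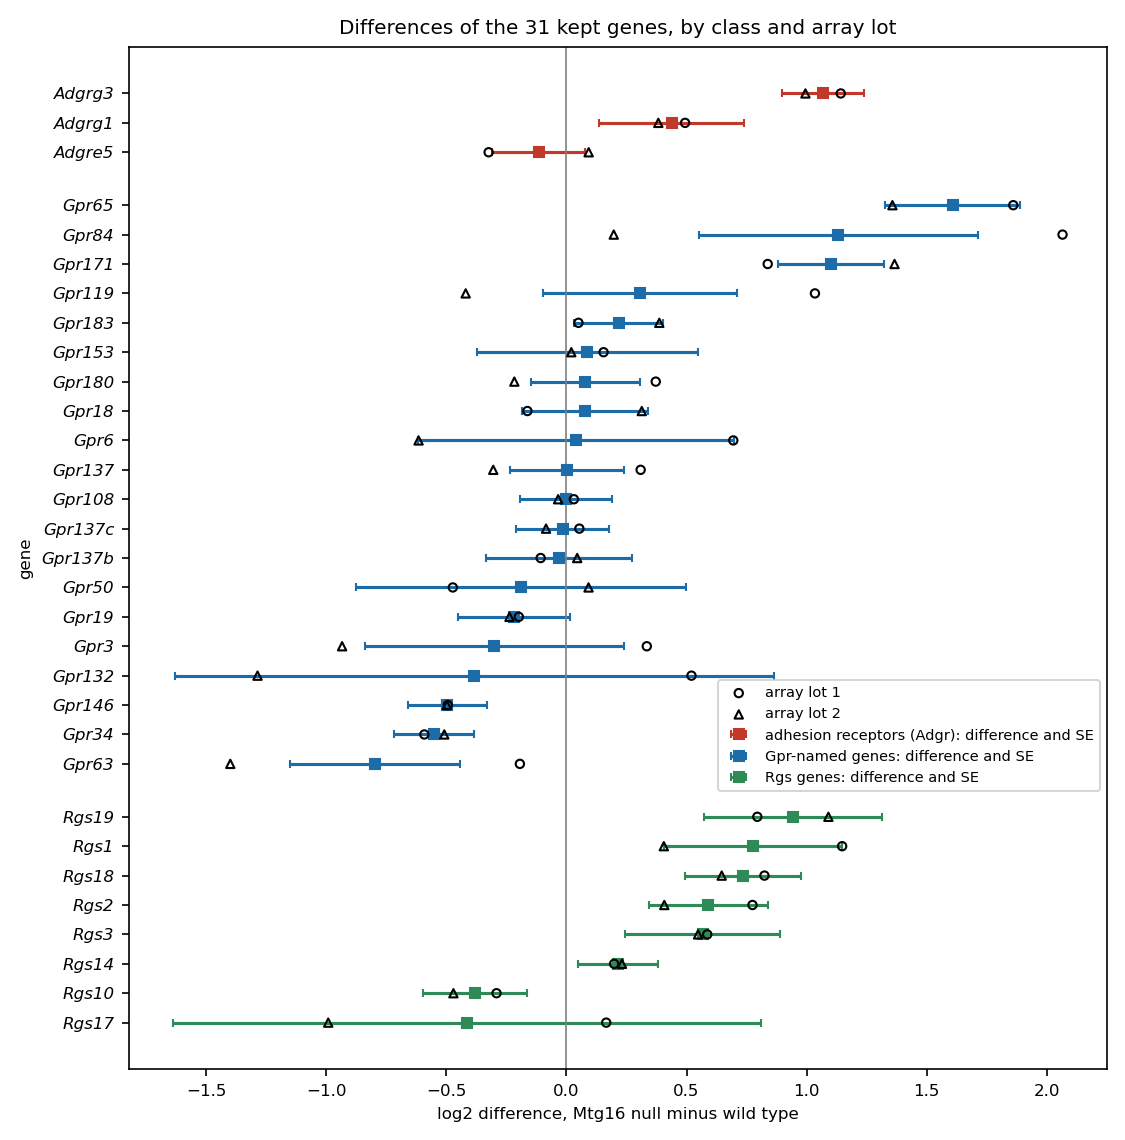
Log2 difference (Mtg16 null minus wild type, horizontal axis) of each of the 31 kept genes, with squares for the difference over 4 arrays, bars for its SE, and open circles and triangles for lots 1 and 2. Gpr65, Adgrg3 and Gpr171 lie at 1.61, 1.07 and 1.10 with both lots on one side of 0, 6 of 8 Rgs genes lie above 0, and Gpr132 and Rgs17 have the widest bars.

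Across all 31 kept members, 0 passed limma at an adjusted p under 0.05 (smallest 0.104, for Adgrg3), against 0.118% of all kept genes. At an unadjusted p under 0.05, 4 members were higher in null (Adgrg3, Gpr65, Gpr171 and Rgs18; 12.9%) and 2 lower (Gpr34 and Gpr146; 6.45%), against 9.65% and 6.83% of all kept genes. Both null arrays lay above both wild-type arrays for 11 members (35.5%) and below them for 4 (12.9%), against 22.6% and 23.1% of all kept genes. A difference of at least 0.5 on the log2 scale in both lots was met upward by 6 members (Gpr65, Adgrg3, Gpr171, Rgs19, Rgs18 and Rgs3), against 10.2% of all kept genes, and downward by 1 (Gpr34), against 7.35%. The median member difference was 0.08, 0.31 in lot 1 and 0.04 in lot 2. By class it was 5.83e-05 for the 20 Gpr genes and 0.44 for the 3 Adgr genes. With the array lot as a block, 8 members instead of 4 were higher at an unadjusted p under 0.05. Those added were Adgrg1, Rgs19, Rgs2 and Rgs3. Over all kept genes the count at that threshold, in either direction, rose too, from 1392 to 2054. After adjustment 0 members passed with the block (smallest 0.113). With 2 other settings a larger share of all genes passed than the 0.118% above. Keeping only the brightest 25% of probes called 295 of 4967 genes (5.94%). Fitting a variance trend called 295 of 8445 genes (3.49%). Adgrg3, Gpr65 and Gpr171 were among the genes called under each setting. Their adjusted p was 0.0247, 0.0285 and 0.0389 under the first setting, and 0.0243, 0.0411 and 0.0493 under the second. Over the 14 alternatives their adjusted p ran up to 0.57, 0.507 and 0.553.

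**Figure D3:**
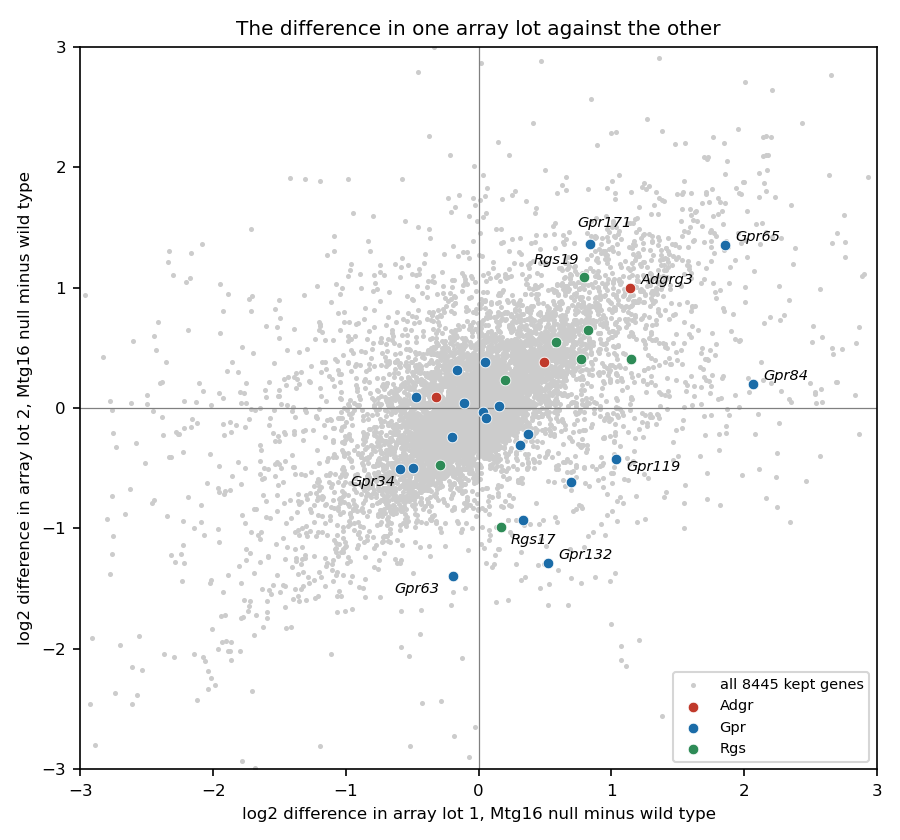
Log2 difference (Mtg16 null minus wild type) in array lot 1 (horizontal) against lot 2 (vertical) for all 8445 kept genes in grey and the 31 members in colour by class; genes beyond 3 on either axis are not drawn. Gpr65, Gpr171, Adgrg3 and Rgs19 lie in the upper right, Gpr34 in the lower left, and Gpr132, Gpr119 and Rgs17 in the quadrant where the lots disagree in sign.

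In 14 of the 31 members (45.2%) the lot difference was larger than the genotype difference, near the 48.1% of all kept genes. In 13 of the 31 (41.9%) the 2 lots gave differences of opposite sign, against 29.6% of all kept genes. Rgs17 and Gpr132 were the widest, with lot 2 minus lot 1 at -2.39 and -2.34 on the log2 scale, followed by Gpr50 (-1.32) and Gpr6 (1.11). The median size of the lot difference was 0.20 for the 23 members above the Y-linked range on every array, Rgs17 among them, and 0.85 for the 8 others. For Adgrg3, Gpr34, Gpr146, Gpr183 and Rgs14 the lot difference was between -0.04 and 0.03.

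**Figure D4:**
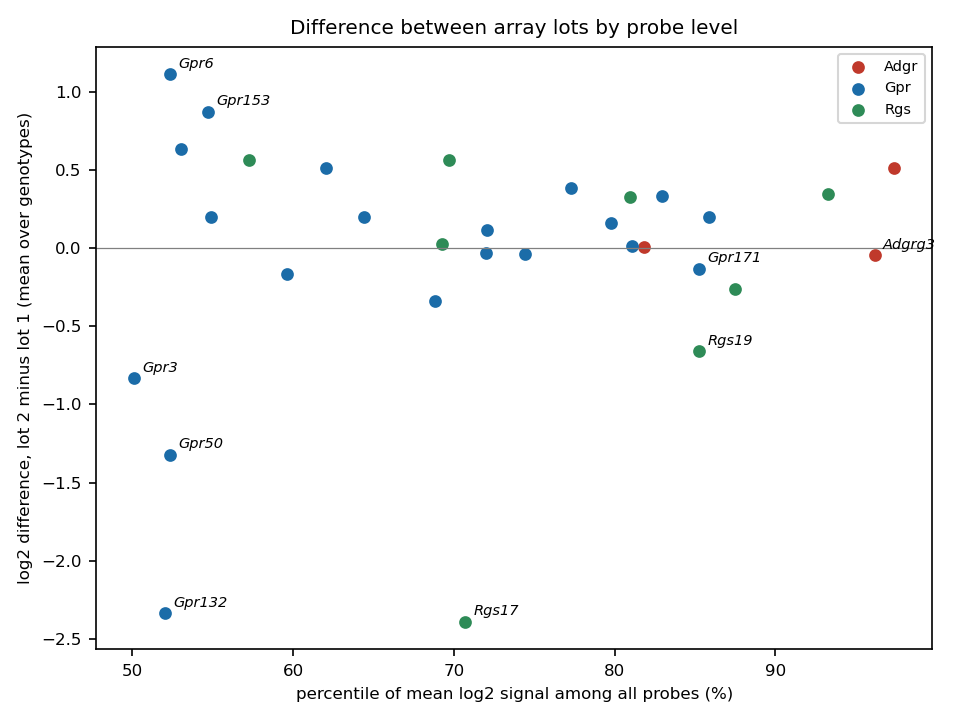
Log2 difference between array lots (lot 2 minus lot 1, mean over the genotypes) against the percentile of mean log2 signal among all probes, 1 point per kept member, coloured by class. Gpr132, Gpr50, Gpr6 and Gpr3, at percentiles under 53, lie far from 0; Rgs17 does so at percentile 70.7, while Adgrg3 at percentile 96.2 lies near 0.

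The filter set its boundary at a geometric mean of 417 units. Just inside it were Gpr3 (mean 420 units, 628 and 228 in the null arrays, 498 and 435 in the wild-type arrays) and Gpr132 (466 units). Just outside were Gpr35 (404 units, 254 and 458 in the null arrays, 673 and 341 in the wild-type arrays) and Rgs9 (397 units). With a mean under 417 units, a member below the filter cannot be above 498 units on every array. Of the 48 such members (28 Gpr, 11 Adgr and 9 Rgs genes), 36 were at or under 498 units on every array. Adgre1, which encodes the macrophage antigen F4/80, was among them, with 344 and 367 units in the null arrays and 200 and 246 units in the wild-type arrays.

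Other genes of G protein signalling gave a setting for these values. Of 80 listed symbols, old names included, 66 had a probe and 45 were kept: 19 G protein subunit genes, 8 receptor kinase, arrestin and regulator genes, and 18 effector genes. With limma 0 of the 45 passed in either direction at an adjusted p under 0.05 (smallest 0.0744), while 5 were higher and 3 lower at an unadjusted p under 0.05, near the 9.65% and 6.83% of all kept genes. The medians were 0.35 for subunits, 0.17 for regulators and -0.08 for effectors.

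Gna14, a Gq-class alpha subunit gene, had the widest difference of the 45, with 1691 and 1731 units in the null arrays against 6315 and 6607 units in the wild-type arrays. It was 3.78-fold lower in null, at -1.90 on the log2 scale in lot 1 and -1.93 in lot 2 (limma adjusted p = 0.0744, and 0.0167 with a variance trend). No other alternative gave a gene of the 3 lists an adjusted p under 0.05, and the smallest ran up to 0.41. The gamma subunit genes Gng10, Gng11 and Gng2 had log2 differences of 0.54, 0.67 and 0.51, higher in both lots, and Gnb4 and Gnas had -0.20 and -0.07. Of 19 subunit genes, 9 had both null arrays above both wild-type arrays and 1, Gna14, had both below, against 22.6% and 23.1% of all kept genes.

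Among regulators, Gpsm2, whose protein binds inactive Gi subunits and orients the spindle, had 6548 and 4662 units in the null arrays against 20414 and 9527 units in the wild-type arrays (log2 difference -1.34, limma adjusted p = 0.279). Arrb1, a beta-arrestin gene, had a log2 difference of -0.38, and its paralog Arrb2 one of 0.51. Gpsm1 and Ric8b, the second a chaperone gene for G protein alpha subunits, had 0.56 and 0.64. Among effectors, Pik3cg, the phosphoinositide 3-kinase gene driven by beta-gamma subunits, had 3885 and 4587 units in the null arrays against 2615 and 2353 units in the wild-type arrays (log2 difference 0.77, limma adjusted p = 0.189). Its partner Pik3r5 had -0.76, with overlap. Prkaca, a catalytic subunit gene of protein kinase A, and Rapgef3, an exchange factor gene driven by cyclic AMP, had 0.65 and 0.78. Pde4a, a cyclic AMP phosphodiesterase gene, had -1.48, and its null signals (401 and 280 units) lay in the Y-linked range.

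**Figure D5:**
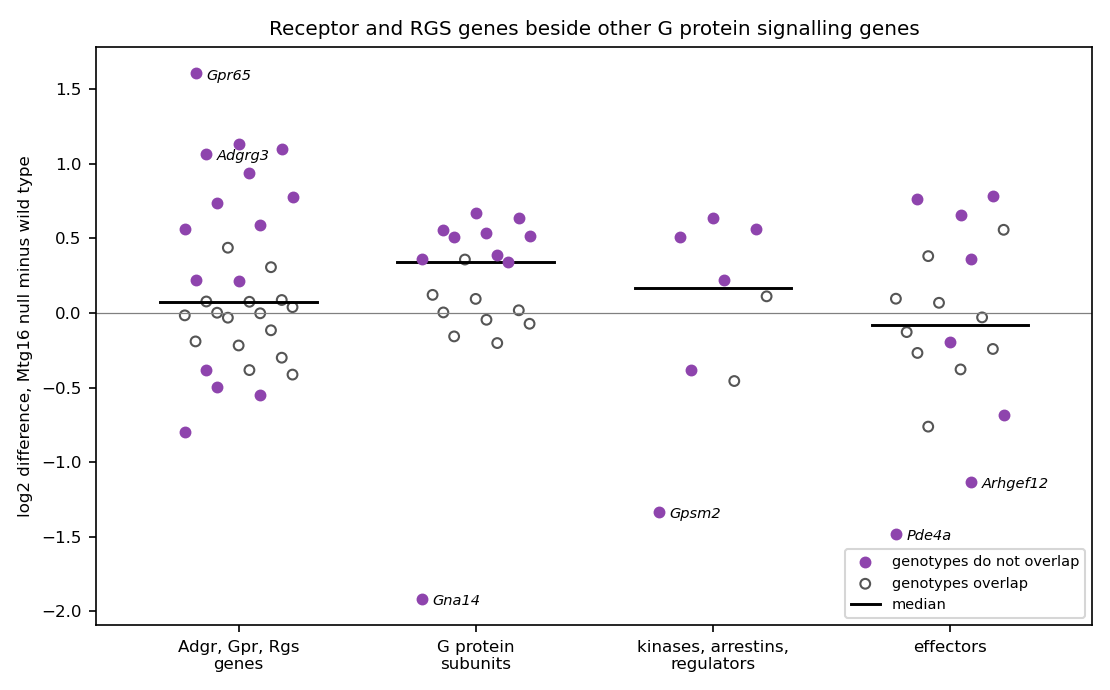
Log2 difference (Mtg16 null minus wild type, vertical axis) of the 31 kept receptor and RGS genes and of the 19, 8 and 18 kept genes of the 3 other lists, 1 point per gene, filled where the genotypes do not overlap, with a line at each median (0.08, 0.35, 0.17 and -0.08). Gna14 is the lowest point at -1.92 and Gpr65 the highest at 1.61.

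Genes that mark blood cell types differed between the genotypes in the same arrays. The counts without overlap below stand beside 22.6% of all kept genes above in null and 23.1% below. The summed signal of 11 late neutrophil genes was 148105 to 158427 units in the null arrays, against 1369470 to 1485620 units in the wild-type arrays, and 11 of 11 had both null arrays below both wild-type arrays. For 8 early granulocyte genes the sums were 3465700 to 4118900 units in null and 1604550 to 1693180 units in wild type, and 7 lay above without overlap. Sums over 7 megakaryocyte genes were 840933 to 954705 units in null and 499000 to 499467 units in wild type, with 6 above and 1 below. For 6 eosinophil genes they were 475487 to 556178 units in null and 118993 to 129608 units in wild type. All 5 kept lay above without overlap. Sums over 11 erythroid genes were 1085340 to 1246340 units in null and 1758640 to 2578230 units in wild type. All 10 kept lay below without overlap. For 9 B lineage genes the sums were 77766 to 86649 units in null and 38116 to 44636 units in wild type, mostly from Vpreb3, Vpreb1 and Cd79b. Of the 6 kept, 5 lay above without overlap and 0 below. Ms4a1 (CD20) of that list, below the filter, went the other way, with 68.0 and 143 units in the null arrays against 1444 and 1767 units in the wild-type arrays. The 11 T and natural killer cell genes summed to 214303 to 244792 units in null and 71476 to 73267 units in wild type, mostly from Nkg7. Of the 6 kept, 3 lay above without overlap and 1 below (Gzmb). The 9 monocyte and macrophage genes summed to 73576 to 79795 units in null and 38121 to 43684 units in wild type. Of the 7 kept, 4 lay above without overlap and 1 below (Cd163). The 11 endothelium and stroma genes summed to 28121 to 30168 units in null and 19338 to 21722 units in wild type. Of the 7 kept, 5 lay above without overlap and 1 below (Col1a1), and Cdh5, which the filter removed, also lay below. The 8 mast cell and basophil genes were lower in sum, at 206253 to 207074 units in null and 283513 to 287295 units in wild type, with Mcpt8, Cpa3 and Fcer1a below without overlap and Hdc above. These shifts went along with the higher Adgrg3, Rgs18, Gpr65 and Gpr171 signals and the lower Gpr34 and Gpr146 signals, and their part in them was not tested.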

How the data were processed

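RNA of lineage-negative marrow was labelled with digoxigenin and hybridised to 1-colour ABI arrays, per the labels' protocols. As deposited, each value is a probe's linear intensity, 28.2 to 3093946 signal units for 33012 probes, with a median of 470 on each array. After sorting, the 4 arrays differed nowhere by more than 11.1 units, so the authors had quantile normalized the deposited intensity. No source used here gives the background correction or detection calls.

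Probes were named from the platform annotation (14411 with 1 symbol, 247 with several, 18354 with none); 14402 of the first matched RefSeq (GRCm38.p6) and 0 symbols changed. Signals were raised to the 1st percentile (75.8 units), taken as log2, and the brighter 50% of probes kept, with the probe of highest mean per gene. limma 3.58.1 (R 4.3.3) compared null with wild type over 8445 genes (2 residual and 2.11 prior degrees of freedom) with Benjamini-Hochberg adjustment at 0.05, after a test on simulated data. Figures used matplotlib 3.10.9 in Python 3.11.15.

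The labels make the replicate number the array lot, which pairs the arrays: deviations of same-lot arrays from their genotype means correlated at 0.50 across 8445 genes. Alternatives were the lot as a block, 2 filters, 2 floors, 2 scalings, a variance trend, 2 probe rules and leaving out each array. Members were named in full where they passed the test, differed by at least 0.5 log2 in both lots, or are known in blood cells; every other kept member has its log2 difference, and the pathway lists have up to 3 genes per direction with the widest smaller within-lot difference, less 1 not reported here. The members and lists were chosen with earlier results of these data known.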

Additional observations from a re-analysis of the deposited data

How the results depend on the processing

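At an adjusted p under 0.05, limma called 10 of 8445 genes. The count was 0 with the array lot as a replicate block or without the filter on dim probes, 295 with the brightest 25% of probes or a variance trend, and 0 to 0 with an array left out, where the lone array of its genotype is assumed to vary like the other genotype. At an unadjusted p under 0.05 these settings gave 2054 genes with the block, 1512 without the filter and 680 to 1438 with an array left out. Members past that threshold numbered 0, and 3 with the brightest 25% or the variance trend; the pathway lists had 0, and 1 with the variance trend. Members higher at an unadjusted p under 0.05 numbered 4, and 8 with the block. They numbered 6 without the filter (over 79 members), 6 with the brightest 25% (over 13 members) and 6 with the variance trend. Lower ones numbered 2, and 4 without the filter (over 79 members), 1 with the brightest 25%, 1 with the variance trend, and 0 to 2 with an array left out (0 without null array 2 or wild-type array 2, 1 without wild-type array 1). The median member difference of 0.08 became 0.44 with the brightest 25%, which kept 13 members. It was 0.02 without the filter, 0.06 with the floor at the 10th percentile, and 0.08 to 0.22 with an array left out (0.19 without null array 2, and 0.16 and 0.22 when wild-type arrays 1 and 2 were dropped in turn). Of the 31 members, 18 kept their sign under every alternative that gave them a value: 14 alternatives for 11 of them and 13 for 7, which the brightest 25% leaves out. Gpr137 reversed with cyclic loess (-0.0062). Leaving out 1 array reversed 13 members, whose ranges were Gpr108 -0.12 to 0.11, Gpr119 -0.14 to 0.76, Gpr132 -2.0 to 1.24, Gpr137 -0.23 to 0.24, Gpr137b -0.33 to 0.26, Gpr137c -0.15 to 0.12, Gpr153 -0.38 to 0.56, Gpr18 -0.21 to 0.36, Gpr180 -0.13 to 0.28, Gpr3 -1.03 to 0.43, Gpr50 -0.99 to 0.61, Gpr6 -0.84 to 0.92 and Rgs17 -1.90 to 1.07. The block changed no adjusted call of a member. The cause of these shifts was not tested, beyond the fewer genes or arrays that a setting leaves.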

Other observations

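Below the level filter, 3 of 9 Rgs genes had both null arrays below both wild-type arrays and 0 had both above, against 16.1% and 17.4% of the 5395 genes below the filter. Rgs4 had 126 and 153 units in the null arrays, against 326 and 326 units in the wild-type arrays. Rgs6 had 125 and 176 units in the null arrays, against 341 and 365 units in the wild-type arrays, while a dimmer probe of Rgs6 read 76.7 and 132 units in null and 108 and 93.8 units in wild type. The third was Rgs13. All these signals lay at or under the 498 units reached by Y-linked probes, so their differences are not resolved from background.

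Gpr173 and Gpr157, both below the filter, were each high on some arrays. Gpr173, an orphan receptor gene of brain, had 1202 and 106 units in null arrays 1 and 2, against 1424 and 72.8 units in wild-type arrays 1 and 2, so lot 1 alone was bright. Gpr157 had 219 and 187 units in the null arrays, against 168 and 1501 units in the wild-type arrays. Gpr82, the direct neighbour of Gpr34 on the X chromosome, had 207 and 371 units in the null arrays, against 88.3 and 143 units in the wild-type arrays. All of these Gpr82 signals lay under the 498 units reached by Y-linked probes, so its difference is not resolved from background.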
